A study of Mus musculus with 8 samples.

Results

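The baseline transcriptome of wild-type (WT) mouse mesangial cells (MMC) was described from the 2 total RNA libraries of WT cells, WT A and WT B, out of 8 libraries in the series. Both were taken by their labels as WT total RNA, and all 24620 rows of the count lists that name a gene were described. The cells were primary kidney glomerular mesangial cells of C57BL/6J mice with a wild-type genotype, grown in RPMI 1640 with foetal bovine serum and given no treatment. Per the study's methods they came from glomeruli obtained by sieving, and the cells were expanded by passage before use, so the libraries describe cultured cells and not the mesangium in the kidney. The labels give no age for the mice and do not say whether A and B came from separate cultures. For other libraries of the WT cells the paper calls A and B independent samples, without naming separate cultures or mice. Every spread given below is therefore the spread between 2 samples, and how far it is technical is not known. With 1 group of 2 libraries no test was run, and all values are descriptions.

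Mesangial cells are the contractile, pericyte-like cells that hold the capillary loops of the glomerulus together. They arise from Foxd1-expressing stroma, depend on PDGF-B signalling through PDGFRB, respond to angiotensin II and endothelin, and secrete the mesangial matrix of type IV collagen, fibronectin, laminins and proteoglycans. In culture they are known to express smooth muscle actin and to divide. Other cells of the glomerulus are the podocyte, which carries the slit diaphragm, the fenestrated endothelial cell and the parietal epithelial cell, and tubule fragments and blood cells can remain in a sieved preparation.

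Levels are given as counts per 1000000 (CPM) over the gene rows, without Rn45s, the ribosomal RNA precursor, and as transcripts per 1000000 (TPM), which divides by exon length and is the scale used to compare genes with each other. WT A held 15577630 counts and WT B 16610224 after Rn45s was left out. Rn45s itself took 9.26% of the gene counts in A and 4.52% in B. A gene was called present at 1 CPM or more in both libraries, which is 15.6 counts in A and 16.6 in B. A gene at 3 counts or fewer in both was taken as at the floor, at most 0.193 CPM in A and 0.181 CPM in B, and a gene at 0 counts could lie anywhere below that. The intervals and floors cover counting error only.

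Of the 24620 gene rows, 11425 were present (46.4%). Among protein-coding rows 11158 of 20596 were present (54.2%), against 205 of 2118 long non-coding RNA rows (9.68%) and 3 of 1117 microRNA rows. At the other end, 10963 rows were at the floor (44.5%), of which 8512 had no count in either library. The 2 libraries ranked the present genes similarly, with Spearman's rho of 0.953 and Pearson's r of 0.952 on the log2 scale. Both were taken across genes, and genes are no independent replicates.

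The levels spanned 7 abundance classes by mean CPM. No count was seen for 8512 rows, 2100 rows lay above 0 and up to 0.1 CPM, 2191 at 0.1 to 1 CPM and 2837 at 1 to 10 CPM. The fullest class above 0 was 10 to 100 CPM, with 6846 rows that took 27.1% of the counts in A and 26.8% in B. The 2044 rows at 100 to 1000 CPM took 49.0% and 49.3%, the largest share of any class. Only 90 rows reached 1000 CPM or more, all of them protein-coding, and they took 22.5% of the counts in A and 22.4% in B. The class shares thus differed between the libraries by less than 1 percentage point, and 20077 rows (81.5%) fell in the same class in each library taken alone.

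**Figure D1:**
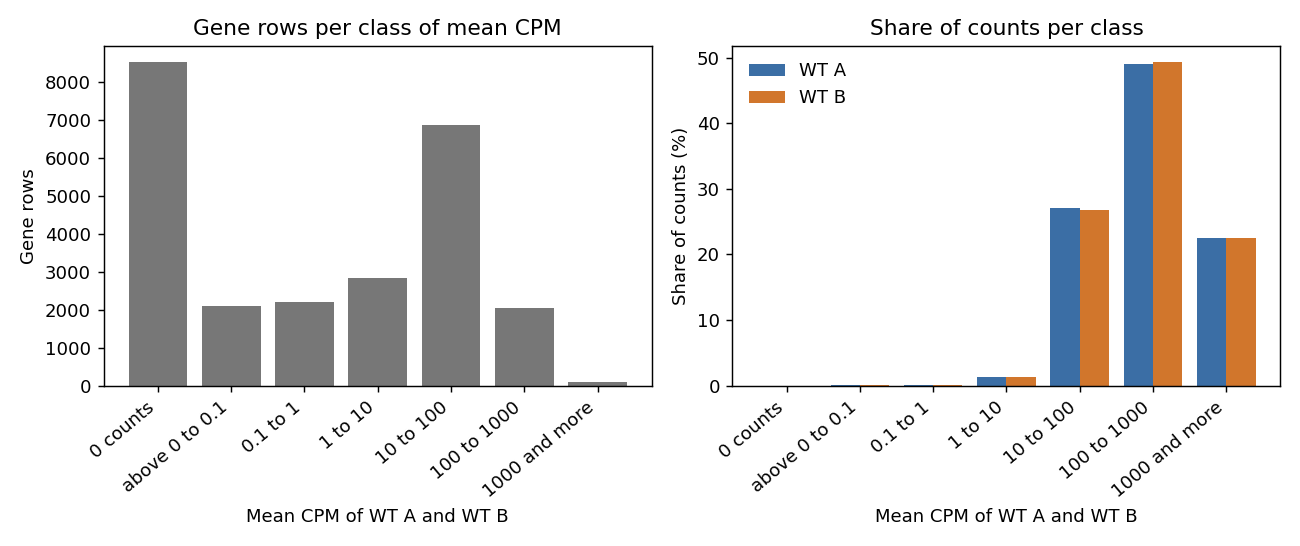
Left, the number of gene rows in each class of mean CPM over WT A and WT B, and right, the share of each library's counts that the class holds, in percent. The 8512 rows without a count and the 6846 rows at 10 to 100 CPM are the fullest classes, while the 2044 rows at 100 to 1000 CPM hold the most counts in both libraries.

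The counts were spread over many genes. The 10 most abundant rows held 7.25% of the counts in A (95% Wilson interval 7.24 to 7.26%) and 7.50% in B (7.49 to 7.52%), a mean of 7.38% ± 0.178 (SD, n = 2). The 100 most abundant held 23.5% ± 0.0859 and the 1000 most abundant 56.5% ± 0.561. The number of rows that together held 50% of the counts was 702 in A and 659 in B.

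By counts, the leading mRNA was Fn1, which encodes the matrix glycoprotein fibronectin (GRCm38.p6, chr1:71585473-71653280). It stood at 16716 CPM in A and 13156 CPM in B. Next came Acta2 (chr19:34240336-34255585), the smooth muscle α-actin, at 7410 and 9999 CPM, and Eef1a1, the elongation factor that brings aminoacyl-tRNA to the ribosome, at 6236 and 9891 CPM. Sparc, a collagen-binding matricellular protein, was at 6090 and 6752 CPM. Vim, the intermediate filament vimentin of mesenchymal cells, was at 5690 and 6896 CPM. Fn1 was the highest gene in both libraries, and the order of the next genes changed between them: Thbs1, which encodes thrombospondin-1, an activator of latent TGF-β, was second in A at 7706 CPM and stood at 4699 CPM in B.

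Sorted by role, the 30 protein-coding genes with the highest mean CPM were mostly of 2 kinds. The 10 cytoskeletal genes were Acta2, Vim, Actg1, Flna, Actb, Tagln, Myh9, Tpm1, Cald1 and Actn1, and together they took 4.99% of the counts in A and 5.55% in B. The 10 genes of matrix and secreted proteins, among them Fn1, Sparc, Thbs1, Col1a1, Col4a1, Ctgf, Col4a2, Loxl2 and Tnc, took 5.76% and 4.90%. So the cytoskeletal share was the larger in B and the matrix share the larger in A. Of the rest, Eef1a1 and Eef2 serve translation, and Hsp90ab1 and Hspa8 are chaperones. The remaining 6 were Itgb1, the β1 integrin chain through which cells bind fibronectin and collagen, the kinase anchor Akap12, the ubiquitin ligase Nedd4, Lars2, Tpt1 and Ybx1.

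Within the matrix genes, type IV collagen, the network collagen of basement membrane and mesangial matrix, was represented by Col4a1 at 6367 CPM in A and 4114 in B and by its partner chain Col4a2 at 3598 and 2545 CPM. Col1a1, a chain of fibrillar type I collagen, was at 5403 and 6366 CPM. Ctgf, a TGF-β-induced matricellular factor, was at 4172 and 3428 CPM. The type IV chains and Ctgf were thus higher in A, and Col1a1 in B, all within 2-fold.

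Of the 30 leaders only Lars2, the mitochondrial leucyl-tRNA synthetase, differed by more than 2-fold in CPM, at 3436 CPM in A and 1606 CPM in B. Rn45s also took the larger share in A, as given above, and whether the level of Lars2 rests in part on reads of ribosomal RNA was not tested. The row of the microRNA precursor Mir6236 was likewise higher in A, at 123 CPM against 58.0 CPM in B.

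**Figure D2:**
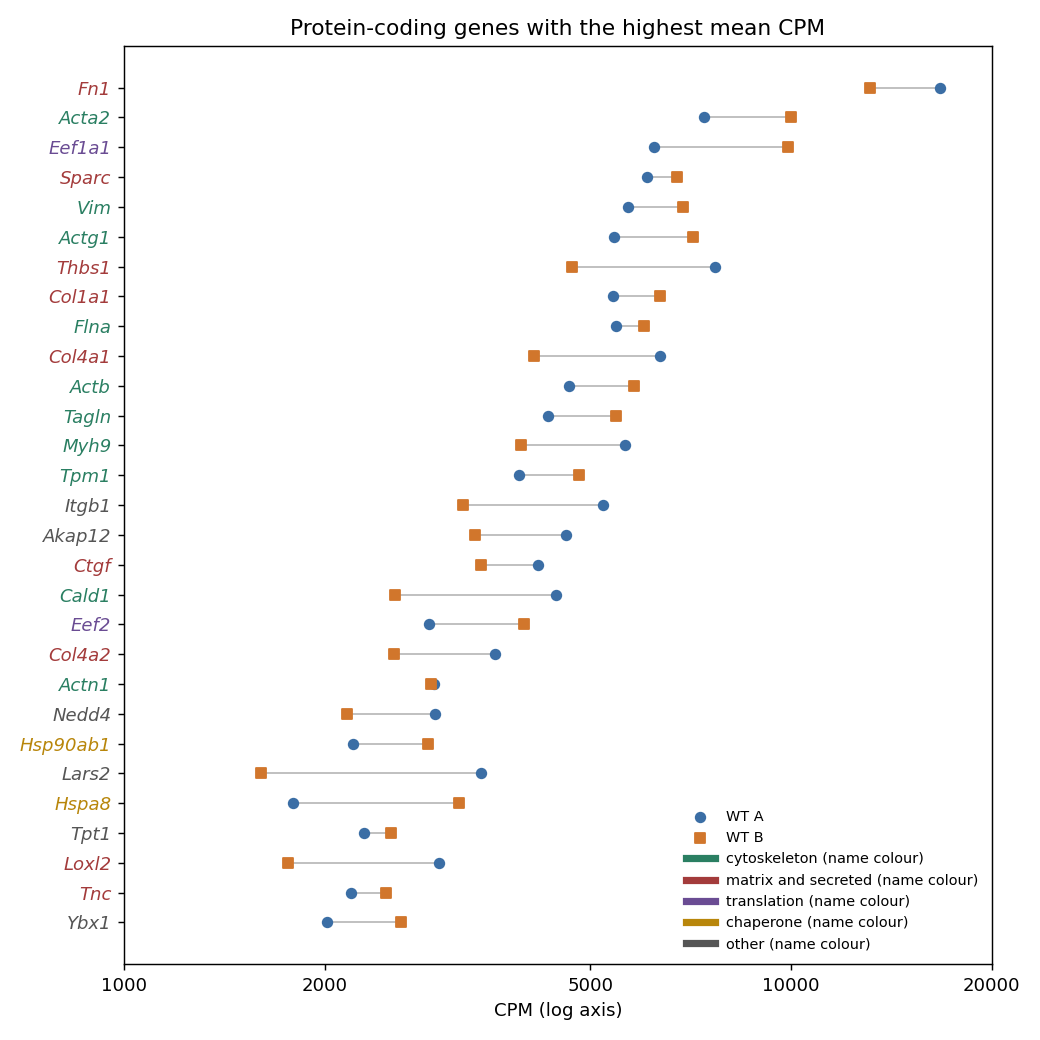
Of the 30 protein-coding genes with the highest mean CPM, the 29 named here, with WT A as circles and WT B as squares on a log axis of CPM, joined by a line for each gene and with names coloured by role. Fn1 is highest in both libraries, at 16716 and 13156 CPM, and Lars2 has the widest gap between the libraries, at 3436 and 1606 CPM.

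Per length the order changed. By mean TPM the leading 30 held 10 cytoskeletal genes, 9 of translation, 4 of matrix and secreted proteins, 2 chaperones and 5 others, and 13 genes stood in both lists of 30. Eef1a1 led at 9777 TPM in A and 13159 TPM in B. Vim followed at 8707 and 8954 TPM, Acta2 at 8086 and 9258 TPM, Actg1, the cytoplasmic γ-actin, at 7801 and 8707 TPM and Tagln, the actin-binding protein SM22, at 7653 and 8204 TPM. The means of Vim, at 8830 ± 174 TPM (SD, n = 2), and of Acta2, at 8672 ± 829 TPM, lie closer together than their spread, so these neighbours in the order cannot be told apart. Fn1, whose exons cover 8425 bases, stood at 5568 TPM in A and 3718 in B and took place 13 of the list.

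Short mRNAs stood higher in this order than by counts. Tpt1, the translationally controlled tumour protein, stood at 7184 and 6696 TPM, and S100a6, a small calcium-binding protein, at 6780 and 6384 TPM. Ftl1, the light chain of the iron store ferritin, was at 4691 and 6519 TPM. Lgals1, the β-galactoside-binding galectin-1, was at 4084 TPM in A and 8521 TPM in B, the one gene of this list more than 2-fold apart in CPM (1164 and 2863 CPM). The ribosomal protein mRNAs Rps2, Rplp0, Rplp1, Rpl10, Rpl12, Rpl41 and Rps12 supplied 7 of the 9 translation genes. The value for Tpm1, tropomyosin 1, depends on the transcript used: it was 3417 ± 103 TPM on all exons and 6418 TPM on its longest transcript. Among 286 listed or leading genes with a value on both, it and Flt1 were the 2 that moved by over 1.5-fold. Actins, ribosomal proteins and Eef1a1 have near-identical copies or pseudogenes in the genome, and since reads not uniquely placed were left out (16.0% of listed reads in A and 13.7% in B), their levels are uncertain.

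Ribosomal protein mRNAs as a class, 78 rows of which 69 were present, took 2.61% of the counts in A and 4.43% in B, or 9.23% and 13.3% of the TPM. Their median log2 ratio of B to A was 0.73. The ratio also differed with transcript length, though the median of the ribosomal protein rows was larger than that of any length class. Over present genes the median log2 ratio of B to A was 0.35 in the shortest of 3 equal classes of exon length (median 1643 bases), 0.04 in the middle class and −0.33 in the longest (median 5763 bases). By these medians short mRNAs were relatively higher in B and long ones in A, though single genes can go the other way. The part of transcript length in the differences between A and B given above and below was not tested.

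Promoter sequences were looked at for the genes that carry this contractile pattern. Smooth muscle genes are known to be driven by serum response factor (SRF), encoded by Srf, which was present at 99.7 CPM in A and 98.5 CPM in B and which binds the CArG box. RefSeq promoter windows (GRCm38.p6) from 250 bases before to 50 bases after a gene's start were available for 12 of the 16 smooth muscle genes and for 19 of the 30 leaders by CPM. The CArG box was searched on both strands and only in its exact form, CC, a run of A and T, then GG. It lay in the window of 2 of those 12, Myl9 and Ldb3, and of 1 of the 19, Actg1, against 1.81% of all 27025 genes with a window (1.63% of all 32851 windows). The sequence TATAAA on the gene's strand, anywhere in the window, lay in the windows of 4 of the 19 leaders, Cald1, Vim, Eef2 and Tnc, against 9.77% of all genes with a window (8.32% of all windows). For Cald1 it lay 186 bases before the start, and for Tnc 126 or 205 bases before, depending on the start used. For illustration 4 sites are shown with the motif in capitals, a CArG box for Myl9 (chr2:156775293-156775322, plus strand, 161 bases before the start) and Actg1 (chr11:120348566-120348595, minus strand, 90 bases before), and TATAAA for Vim (chr2:13574269-13574294, plus strand, 32 bases before) and Eef2 (chr10:81176606-81176631, plus strand, 15 bases before).
Myl9: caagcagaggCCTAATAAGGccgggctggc
Actg1: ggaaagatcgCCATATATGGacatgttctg
Vim: ctaacagtgtTATAAAagcagcgccc
Eef2: ggcgtcgaccTATAAAaggccgggcg
A match is a description of the letters and not a measured binding site. No exact match was found in the single windows of Acta2 and Cnn1. Sites with a mismatch or outside the window were not looked for, so this does not show that these genes lack a CArG box.

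Across all protein-coding rows, the share of windows with TATAAA on the gene's strand went with the abundance class. It was 17.6% of 5159 windows for genes without a count, 9.82%, 6.71% and 4.55% in the next classes, 3.61% of 7082 windows at 10 to 100 CPM, 4.53% at 100 to 1000 CPM and 14.1% of 92 windows, from 69 genes, at 1000 CPM or more. The least and the most abundant classes were thus the richest in this sequence. The median GC content of the windows was higher in each class than in the one below it, with 47.0% without a count, 61.7% at 10 to 100 CPM and 63.8% at 1000 CPM or more. Windows of 1 gene share sequence, so these shares are descriptions only.

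**Figure D3:**
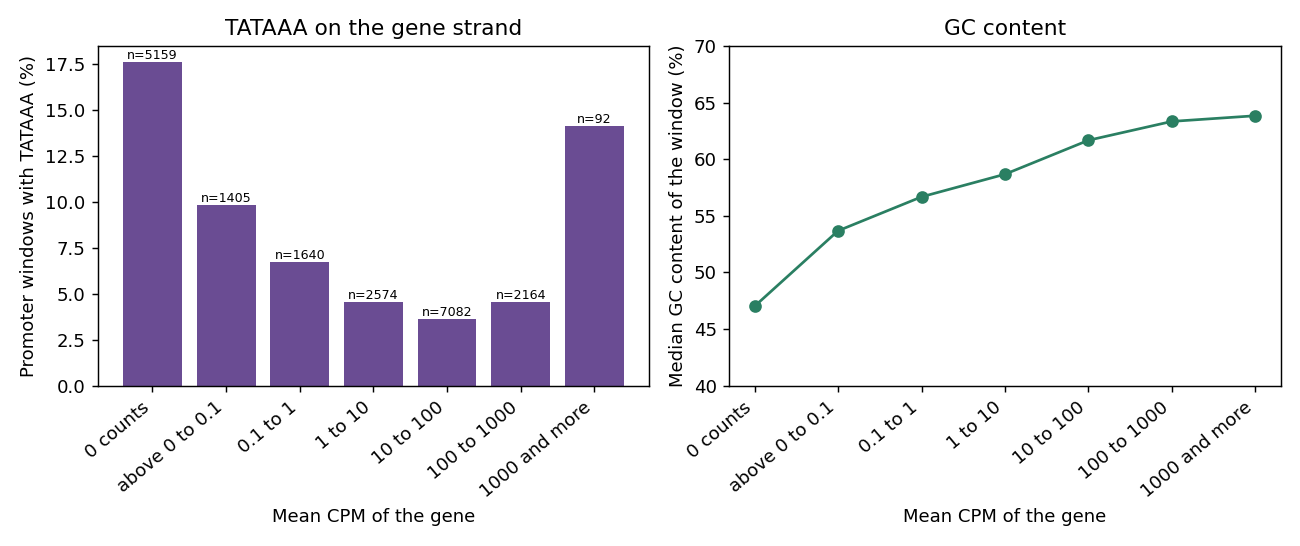
Left, the share of promoter windows of protein-coding genes with TATAAA on the gene's strand, in percent, and right, the median GC content of the windows, in percent, each by class of mean CPM, with the number of windows above each bar. The share with TATAAA is lowest at 10 to 100 CPM (3.61%) and higher at both ends (17.6% and 14.1%), while the median GC content runs from 47.0% to 63.8%.

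Lineage was read from 12 lists of cell type markers with 187 genes, of which 70 were present, beside 46.4% of all rows and 54.2% of protein-coding rows. For each list below, the members over 2-fold apart are to be read beside 8.22% of all present rows. Over 2-fold apart and within 2-fold are always taken in CPM, and the ratio of a gene in TPM can differ from it. In bulk RNA, fewer cells of a type and less RNA per cell cannot be told apart. Genes of contraction and of fibrillar matrix stood far above the other lists, genes known from podocytes were present in part, and most defining genes of endothelial, tubular and erythroid cells were at the floor. Of the defining immune genes 2 of 5 were at the floor and 1, Csf1r, was present.

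Of the 16 mesangial markers 10 were present (62.5%), beside 54.2% of protein-coding rows, among them 4 of the 5 defining ones. Pdgfrb, the receptor for PDGF-B, was at 218 CPM in A and 125 CPM in B. Serpine2, a protease inhibitor (protease nexin-1), was at 120 and 62.8 CPM, and Des, the muscle intermediate filament desmin, at 116 and 869 CPM. Gata3, a transcription factor of the mesangial lineage, was low at 2.12 and 3.43 CPM. The defining marker that was not present was Itga8, the α8 integrin chain, with 38 counts in A and 7 in B (2.44 and 0.421 CPM). Agtr1a, the angiotensin II receptor through which mesangial cells contract in the kidney, had no count in either library.

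The further mesangial markers varied more between the libraries than their number present would show. Fhl2, a LIM domain cofactor, stood at 355 TPM in A and 290 TPM in B, and the soluble guanylate cyclase subunit row Gucy1b3 at 10.8 and 11.2 TPM. Igfbp5, which binds insulin-like growth factors, was at 21.8 CPM in A and 253 CPM in B. The stromal progenitor factor Foxd1 was at 38.6 and 6.38 CPM, and Tbx18, a T-box factor of mural progenitors, at 11.8 and 3.55 CPM. Over 2-fold apart were thus 4 of the 10 present mesangial markers, Des and Igfbp5 higher in B and Foxd1 and Tbx18 higher in A, beside 8.22% of all present rows (3.65% higher in B and 4.57% higher in A). Ebf1, at 10.4 and 7.40 TPM, was within 2-fold, Ptn and Gucy1a3 reached 1 CPM only in A, and Art3 and Hopx had between 0 and 4 counts in each library. The summed level of the list was 779 CPM in A and 1562 CPM in B, and over both libraries Des was its largest member.

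Pericyte and renin cell markers were present for 7 of 11 (63.6%), beside 54.2% of protein-coding rows. Cspg4, the NG2 proteoglycan of pericytes, was at 123 and 99.5 CPM, and Mcam, the adhesion molecule CD146, at 186 and 187 CPM, the most even of the list. Rgs5, a regulator of G-protein signalling in pericytes, was at 4.81 CPM in A and 18.7 CPM in B. Kcnj8 and Abcc9, the subunits of the vascular potassium channel that mark brain and other pericytes, had 1 and 0 counts and 0 and 2 counts. Ren1, the gene for renin, had none. Notch3 was present at 3.80 and 3.28 TPM, Rgs4 at 10.6 and 14.7 TPM and Anpep at 0.854 and 0.642 TPM, while the angiopoietin Angpt1 was higher in A, at 55.8 CPM against 14.9 CPM. Only Akr1b7, a gene of renin-lineage cells, was neither present nor a defining marker, with 3 and 9 counts.

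Smooth muscle markers were present for 14 of 16 (87.5%), beside 54.2% of protein-coding rows. They had the highest summed level of the 12 lists, at 23216 CPM in A and 27262 CPM in B, or 2.32% and 2.73% of all counts. Beside Acta2 and Tagln, Tpm1 was at 3344 and 3490 TPM, Cald1, the thin-filament regulator caldesmon, at 2837 and 1382 TPM, Myl9, a regulatory myosin light chain, at 1638 and 2130 TPM, and Actg2, the enteric smooth muscle γ-actin, at 1609 and 1151 TPM. Cnn1, calponin, was at 386 CPM in A and 917 CPM in B, the only present member over 2-fold apart in CPM. Cald1, over 2-fold apart in TPM, was within 2-fold in CPM, at 4446 and 2552 CPM. Tpm2, Smtn and Lmod1, which encode β-tropomyosin, smoothelin and leiomodin, were above 100 TPM in both libraries.

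The other members of the smooth muscle list stood lower on the same per-length scale. Myh11, the smooth muscle myosin heavy chain, was at 1.20 TPM in A and 0.584 TPM in B, and Myocd, myocardin, the cofactor of SRF, at 3.55 and 0.336 TPM (101 and 12 counts). Myocd thus passed 1 CPM only in A. Pln, phospholamban, the brake on the calcium pump of the sarcoplasmic reticulum, had no count. Mylk, the kinase that activates myosin, was at 24.1 and 38.1 TPM, Ldb3 at 12.9 and 8.08 TPM and Synpo2 at 1.16 and 0.745 TPM.

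Fibroblast markers split in level. Of 22, 12 were present (54.5%), close to the 54.2% of protein-coding rows, with 2 of the 5 defining ones. At the floor were 6, beside 44.5% of all rows, which include non-coding ones. Col1a1 was at 2557 TPM in A and 2556 TPM in B, and Col3a1, the type III collagen chain, at 297 and 191 TPM. By contrast Pdgfra, the PDGF receptor of interstitial fibroblasts, had 4 and 6 counts, Lum, the proteoglycan lumican, 0 and 1, and Dcn, decorin, 140 and 13 counts (8.99 and 0.783 CPM). Thy1 had 1 and 2 counts, Fap 2 and 0, Pi16 2 and 0, and Dpt and Mfap4 none. The list's high sum, 17608 CPM in A and 16881 CPM in B, therefore came from collagens, Sparc and other matrix genes, of which Sparc alone made up 37.2%.

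Sparc, at 6472 and 6089 TPM, and Pcolce, the enhancer of procollagen processing, at 440 and 359 TPM, were even between the libraries. Over 2-fold apart were 5 of the 12 present markers, beside 8.22% of all present rows. Col1a2, the partner chain of Col1a1 in type I collagen, was at 2618 CPM in A and 670 CPM in B, although Col1a1 was nearly even. Lox, the collagen cross-linking lysyl oxidase, was at 1548 and 513 CPM, S100a4 at 81.1 and 20.7 CPM, Fbln2, the elastic fibre protein fibulin-2, at 552 and 1532 CPM and Ly6a, the surface antigen Sca-1, at 2.12 and 83.0 CPM. Of these, 3 were higher in A and 2 in B. Fbn1, Postn and Fbln1 were present within 2-fold in CPM, and Mfap5 and Cd34 were not present.

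**Figure D4:**
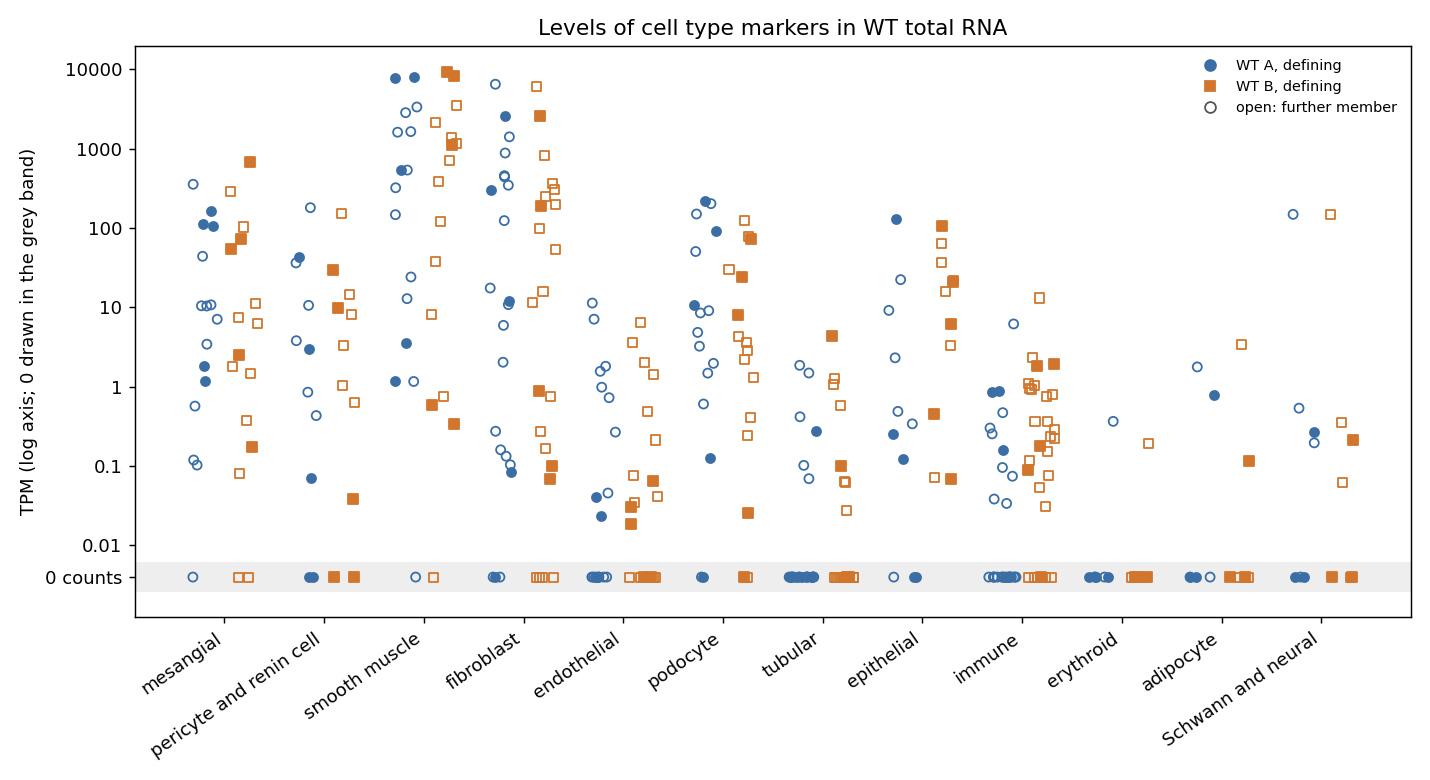
TPM of every marker of the 12 cell type lists on a log axis, with WT A as circles and WT B as squares, filled for defining markers and open for further ones, and genes without a count drawn in the grey band. Smooth muscle markers reach the highest levels, while the defining endothelial, erythroid and most tubular markers lie in or near the grey band.

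Endothelial markers were mostly at the floor. None of the 5 defining genes was present: Pecam1 and Cdh5, the endothelial junction proteins, had no count, Kdr, the VEGF receptor 2, had 1 and 1, Tek, the angiopoietin receptor, 0 and 1, and Vwf, the von Willebrand factor, 2 and 4. In all 13 of the 20 were at the floor, beside 44.5% of all rows. Of these 13, 7 had no count, among them Tie1, Robo4, Sox17, Cldn5 and Icam2. The 4 present members were Ehd3, a membrane recycling protein, at 14.8 and 9.99 CPM, Flt1, the VEGF receptor 1, at 27.7 and 9.27 CPM, Egfl7 at 1.03 and 2.41 CPM and Eng, the TGF-β coreceptor endoglin, at 1.99 and 2.17 CPM. Flt1 was the higher in A and Egfl7 the higher in B by over 2-fold. The summed level of the list was 47.4 CPM in A and 24.9 CPM in B.

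Podocyte markers were present for 12 of 16 (75%), a larger share than that of all rows and of protein-coding rows (54.2%). Among the defining ones Synpo, the actin-associated synaptopodin, was at 555 CPM in A and 214 CPM in B, Wt1, the transcription factor of podocytes and renal progenitors, at 101 and 31.7 CPM and Podxl, the sialoprotein podocalyxin, at 20.2 and 18.1 CPM. The slit diaphragm gene Nphs1, nephrin, was close to the floor with 4 and 1 counts. Ptpro, a podocyte receptor phosphatase, had no count either. Of the genes that encode proteins of podocytes but are known elsewhere too, Npnt, the α8β1 integrin ligand nephronectin, was at 203 and 125 TPM, Kirrel at 150 and 78.4 TPM and the adaptor Cd2ap at 50.5 and 29.7 TPM.

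The podocyte list was uneven between the libraries. Over 2-fold apart were 7 of the 12 present members, beside 8.22% of all present rows. Synpo, Wt1, Lmx1b (271 and 83 counts), Magi2 (8.35 and 3.97 CPM) and Clic5 (17.8 and 1.02 CPM) were higher in A. Cdkn1c (1.03 and 3.49 CPM) and Rhpn1 (1.60 and 3.43 CPM) were higher in B. Its sum was 1552 CPM in A and 838 CPM in B. Plce1 passed 1 CPM only in A.

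Of 25 tubular markers 3 were present. At the floor were 21, beside 44.5% of all rows, and 16 of them had no count. Slc34a1, the proximal phosphate transporter, Umod, the uromodulin of the thick ascending limb, and Slc12a3, the thiazide-sensitive cotransporter of the distal tubule, had no count, and Aqp2, the collecting duct water channel, had 0 and 1. The exception among the defining genes was Lrp2, the endocytic receptor megalin, with 24 counts in A and 472 in B (1.54 and 28.4 CPM). Cubn, its partner cubilin, was at 7.51 and 6.08 CPM and Ggt1 at 1.35 and 1.14 CPM, and neither moved with Lrp2. Slc12a1 passed 1 CPM only in B, and Aqp3, Slc5a12, Slc5a2 and Hnf4a had up to 2 counts in a library.

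General epithelial markers were a further list for cells that a sieved preparation could hold, and 4 of the 11 were present (36.4%), beside 54.2% of protein-coding rows. Pax8, the kidney lineage factor that defines renal epithelium, was present and even, at 120 CPM in A and 115 CPM in B. Epcam had 0 and 1 counts and Cdh1, E-cadherin, 3 and 14. The keratin pair of simple epithelia was seen almost only in B, where Krt18 had 201 counts against 2 in A, and Krt8 had 77 against 0. Krt19 was at 4.62 and 38.2 CPM, Pax2, a factor of the nephron lineage, at 3.72 and 41.7 CPM, and Cdh16, the kidney-specific cadherin, had 9 and 368 counts. Taken alone, library B had 8 of the 11 members at 1 CPM or more, beside 11822 of all 24620 rows. Cldn1, a tight junction protein of parietal epithelium, was at 25.8 and 50.7 CPM, and Krt7 passed 1 CPM only in B.

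Lrp2 of the tubular list and Krt8, Krt18, Krt19, Pax2 and Cdh16 of the epithelial list were thus higher in B. Pax8 and the tubular Cubn and Ggt1 were not higher in B, and the defining tubular transporters were at the floor in both libraries. The epithelial list, which does not hold Lrp2, summed to 155 CPM in A and 288 CPM in B, and Pax8 made up 53.0% of its summed CPM over both. The part of epithelial cells in these values was not tested.

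Immune markers were present for 2 of 30, Csf1r, the receptor of colony-stimulating factor 1, with 19 and 50 counts, and Cd14, the lipopolysaccharide coreceptor, with 57 and 152. Ptprc, the pan-leukocyte antigen CD45, had 5 and 7 counts, Cd68, a macrophage lysosomal protein, 6 and 17, Adgre1, the macrophage antigen F4/80, 0 and 2, and Cd3e of T cells none. In all 18 of the 30 were at the floor, beside 44.5% of all rows, and 8 of them had no count. Lyz2 had 0 counts in A and 17 in B, and C1qa, C1qb and C1qc, the chains of complement C1q made by macrophages, had 0 in A and 6 to 8 in B. The summed level was 6.48 CPM in A and 18.2 CPM in B, so that in B the 4 members Csf1r, Cd14, Cd68 and Lyz2 passed 1 CPM. Markers of B and natural killer cells (Ms4a1, Ncr1 and Nkg7) had no count, and Cd79a and Cd79b had none in A and 2 and 1 in B.

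Of 7 erythroid genes none was present and 6 had no count, among them the haemoglobin rows Hba-a1, Hba-a2, Hbb-bs and Hbb-bt. Those gene pairs are near-identical copies, so reads from them could have been left out as not unique. Alas2, the erythroid enzyme of haem synthesis, which has no such copy among these rows, had none too. Of the 6 adipocyte markers only Cebpa was present, at 1.67 and 3.73 CPM, while Adipoq had 0 and 1 counts, Plin1 none and Fabp4 3 and 0. Of the 7 Schwann and neural markers only Tubb3, a β-tubulin of neurons, was present, at 148 and 149 TPM. The defining Sox10 and S100b had no count.

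The mesangial matrix list, which includes Fn1 and the type IV collagens named above, was present for 25 of 33 (75.8%), beside 54.2% of protein-coding rows. It had 20 genes at a mean of 100 CPM or more and took 4.70% of the counts in A and 3.32% in B. Per length its leaders after Fn1 were Thbs1 at 3698 and 1913 TPM, Col4a1 at 2695 and 1477 TPM and Mgp, the matrix Gla protein that blocks calcification, at 2261 and 848 TPM. The α3 and α4 chains of type IV collagen, known from the mature glomerular basement membrane, were also present, Col4a3 at 38.5 and 45.2 TPM and Col4a4 at 26.0 and 27.1 TPM, below Col4a5 at 192 and 87.3 TPM. Of the laminin chains Lamb1, Lama5 and Lamc1 led, at 255 and 189, 137 and 70.5, and 116 and 63.9 TPM, whereas Lama2, Lama3, Lama4 and Lamc3 were not present. Eln, elastin, had 3 and 6 counts. Over 2-fold apart in CPM were Nid1 (1869 and 775 CPM), the basement membrane linker nidogen-1, Bgn (758 and 125 CPM), the proteoglycan biglycan, and Mgp (497 and 220 CPM), all 3 higher in A. Among all present rows 4.57% were over 2-fold higher in A.

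Among 28 receptors for vasoactive agents 13 were present (46.4%), the same share as among all rows and below the 54.2% of protein-coding rows. F2r, the thrombin receptor PAR1, stood out at 969 TPM in A and 356 TPM in B, and it made up 66.5% of the list's summed TPM and 56.3% of its summed CPM. Npr3, the clearance receptor of natriuretic peptides, was at 168 and 106 TPM, S1pr3 at 69.7 and 34.7 TPM and S1pr2 at 47.9 and 37.3 TPM. Ednra, the endothelin A receptor, was present but low, at 1.54 and 1.87 CPM, and Ednrb had 0 and 1 counts. None of the 3 angiotensin receptor rows Agtr1a, Agtr1b and Agtr2 had a count, and the vasopressin receptor Avpr1a had 1 and 7. Adora2b, an adenosine receptor, was higher in B at 3.47 and 7.71 CPM, and F2r higher in A at 1152 and 500 CPM, the only present members over 2-fold apart in CPM.

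Growth factor receptors were present for 16 of 21 (76.2%), beside 54.2% of protein-coding rows. Axl, the receptor tyrosine kinase for Gas6, led at 494 TPM in A and 409 TPM in B, followed by Egfr at 192 and 109 TPM, Fgfr1 at 189 and 92.0 TPM and Bmpr1a at 143 and 65.3 TPM. The TGF-β receptor Tgfbr2 was even, at 124 and 117 CPM, and Tgfbr1 was not, at 135 and 54.3 CPM. In CPM, Tgfbr1, Bmpr2 (275 and 111 CPM) and Flt1 were over 2-fold apart, each higher in A, as were 4.57% of all present rows. In TPM the values of Fgfr1 and Bmpr1a given above, and of Pdgfrb given next, also lay over 2-fold apart. The pair of PDGF receptors stood far apart in level, with Pdgfrb at 113 and 54.9 TPM and Pdgfra at 0.0837 and 0.0999 TPM.

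Stromal transcription factors were present for 22 of 26 (84.6%), beside 54.2% of protein-coding rows. Tead1, a Hippo pathway factor, led at 178 and 69.1 TPM, followed by Foxc1 at 155 and 56.6 TPM, Twist2 at 76.2 and 79.0 TPM and Srf at 68.4 and 57.3 TPM. Tcf21, a factor of podocytes and interstitial stroma, had 1 and 0 counts, and Twist1, Foxf1 and Tbx2 reached 1 CPM only in B. Over 2-fold apart were 7, Foxd1, Tbx18, Tbx3 (14.8 and 1.02 CPM), Prrx1 (31.4 and 14.6 CPM), Foxc1 (221 and 94.9 CPM), Tead1 (627 and 287 CPM) and Nr2f1 (12.1 and 5.54 CPM), all of them higher in A. Of all present rows 4.57% were over 2-fold higher in A.

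All 18 genes of the proliferation list, which includes the cell cycle inhibitors Cdkn1a and Cdkn2a, were present. The DNA replication clamp Pcna was at 94.6 and 97.0 CPM, the mitotic kinase Cdk1 at 80.5 and 88.7 CPM, the topoisomerase Top2a at 284 and 198 CPM and the proliferation antigen Mki67 at 296 and 140 CPM. The cell cycle inhibitor Cdkn1a was per length the highest of the list, at 673 and 634 TPM, and was even between the libraries. Cdkn2a, the locus of the inhibitors p16 and p19, was at 32.9 and 74.7 CPM. Mki67 and Cdkn2a were the only ones over 2-fold apart in CPM, in opposite directions.

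Among rows that are not protein-coding, Malat1, a nuclear long non-coding RNA, was the highest by CPM, at 857 CPM in A and 383 CPM in B. Next by mean CPM were 2900097C17Rik at 320 and 149 CPM, Rian, a maternally expressed RNA of the imprinted Dlk1-Dio3 region, at 164 and 124 CPM, and Tug1 at 185 and 102 CPM. Gas5, a host of small nucleolar RNAs, was at 80.1 and 73.7 CPM. Malat1 and 2900097C17Rik were over 2-fold higher in A, and Rian, Tug1 and Gas5 were within 2-fold. The libraries were made from poly(A) RNA, so transcripts without a tail are underrepresented and their low values say little of their level.

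The gap between the libraries depended on abundance. Over 2-fold apart were 939 of 11425 present rows (8.22%), 522 higher in A and 417 higher in B, and the median absolute log2 ratio was 0.38. Among the present rows of each class of mean CPM the share was 15.2% at 1 to 10 CPM, 6.46% at 10 to 100 CPM, 5.63% at 100 to 1000 CPM and 11.1% at 1000 CPM or more, the last being 10 of 90 rows. Against this background the markers over 2-fold apart stood at all levels, from Clic5 near 1 CPM in B to Col1a2 at 2618 CPM in A.

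**Figure D5:**
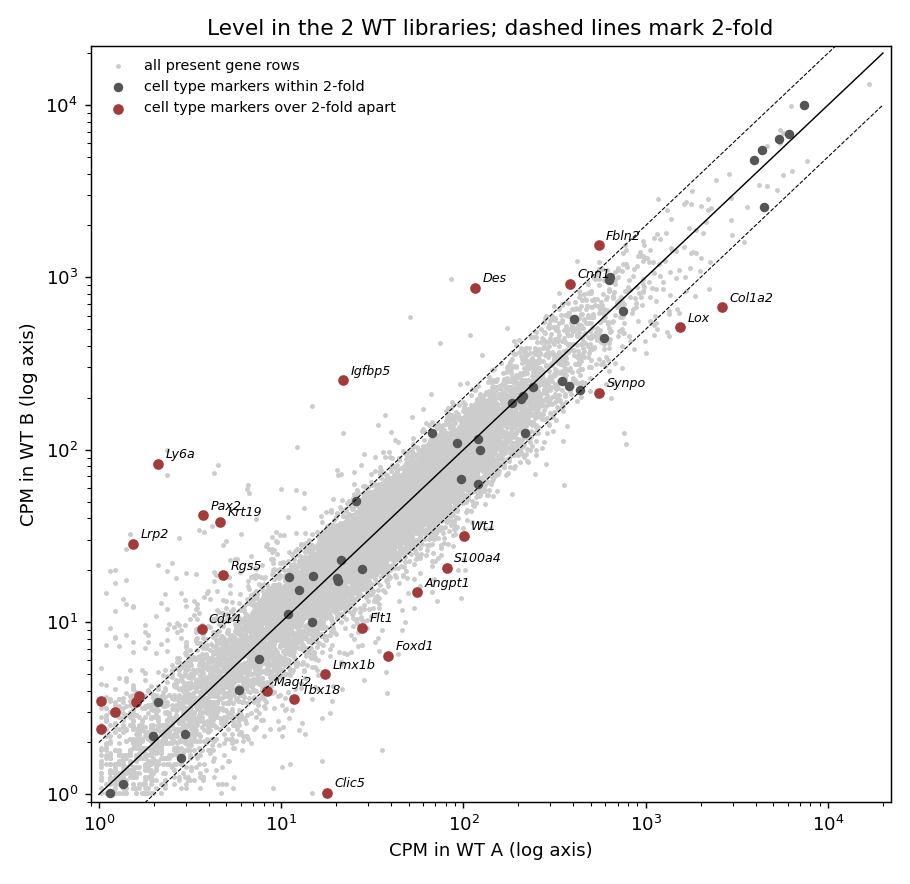
CPM in WT A against CPM in WT B on log axes for all 11425 present rows (grey), with cell type markers within 2-fold (dark) and over 2-fold apart (red, named at a mean of 5 CPM or more). Most rows follow the diagonal, and Des, Igfbp5, Ly6a, Pax2, Krt19 and Lrp2 lie above the 2-fold line while Col1a2, Lox, Synpo and Foxd1 lie below it.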

How the data were processed

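Total RNA of WT MMC was profiled by the authors with a stranded poly(A) mRNA kit (KAPA) on an Illumina HiSeq. Per the methods, the authors aligned the reads with TopHat to mm10 and counted them with htseq-count in reverse-stranded mode at a minimum mapping quality of 10 on UCSC RefSeq genes. The submitters' processing notes also list Bowtie2 2.1.0.1 and HTSeq 0.6.0. The values used are the deposited counts, whole reads per gene without normalization, of 2 libraries with 17168230 (A) and 17396022 (B) gene counts. The other 6 libraries were not used here. Strand was counted, so antisense genes are kept apart, and reads of near-identical copies were left out as not unique. Mitochondrially encoded genes were not analysed here.

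CPM was computed over the gene rows without Rn45s, the summary rows and 18 rows without a gene name (0.000681% and 0.000788% of gene counts). TPM used the union of exons of curated RefSeq transcripts (GRCm38.p6), which was found for 24312 of 24620 rows. Symbols matched for 23616 rows and synonyms for 716, and 288 did not match. Present means at least 1 CPM in both libraries, and the floor is 3 counts. Shares of counts carry 95% Wilson intervals. Tools were Python 3.11.15, pandas 2.3.3, numpy 2.4.6, scipy 1.17.1, R 4.3.3 and edgeR 4.0.16, the last for scaling factors only. The calculations were tested on simulated data.

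The text names the 30 protein-coding genes highest by CPM and by TPM in full or by example, every defining marker, up to 5 further members of each list by mean TPM, members at the floor by name or count, and list members present and over 2-fold apart. Other list members, the leading non-coding rows and the promoter examples were added after their values were seen. Genes that met this rule and are not reported here remain in the counts and sums of their lists. The members and lists were chosen with earlier results of these data known. Alternatives were TMM and RLE factors, Rn45s kept, other minima for presence, TPM in place of CPM, TPM on the longest transcript, protein-coding rows only and each library alone.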

Additional observations from a re-analysis of the deposited data

How the results depend on the processing

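With 2 libraries and no test, every result is a level, and the alternatives move only counts and shares. TMM factors (0.989 in A and 1.01 in B) and RLE factors (0.992 and 1.01) moved no count or share beyond the limits used, 1.5 times for counts and 1 SD for shares. The minimum for presence set the low lists: at 2 CPM 2 endothelial, 1 tubular and 1 immune marker were present in place of 4, 3 and 2. With a single count in both libraries as the minimum they were 9, 5 and 11, at 1 CPM in at least 1 library 4 immune markers were present, and at 1 TPM in both 1 was. Each library alone gave 2 to 4 immune markers, the 4 in WT B, and 1097 to 1159 rows above 0 and up to 0.1 CPM in place of 2100, since a mean of 2 libraries has more low values. With classes of TPM, 136 rows stood at 1000 or more in place of 90. The 10 most abundant rows held 6.87% with Rn45s kept in the total and 7.83% of TPM, the 100 most abundant 21.8% with Rn45s kept, 23.5% over protein-coding rows and 29.0% of TPM, and 430.5 rows held 50% of TPM. Over all 16108 rows with a count, 4090 were over 2-fold apart in place of 939, as low counts then enter. Of the values for single genes and the lists of other cell types and of functions, 25 moved and 415 did not. For single genes the limit was 1 SD of the 2 libraries, so this tally depends on their spread as well as on the size of the change. Flt1, at 4.56 TPM and 7.06 TPM on its longest transcript, counted as not moved, and Vim, at 8830 and 8610 TPM, as moved. No paired analysis was possible because only 1 group of 2 libraries was described and no test was run. Depth limits genes below about 1 CPM, where a library holds at most 16.6 counts.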
